A study of Mus musculus with 8 samples.

Results

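Penk, Tac1, Rasd2, Rarb, Isl1, Six3, Lhx8, Cartpt, Ppp1r1b and Adora2a are genes known for their expression in the striatum or the basal forebrain, parts of the forebrain other than the hippocampus. They were measured in hippocampal RNA on Affymetrix 3' arrays, where 13 of the 22626 probe sets tested were annotated to exactly 1 of these genes. Those 13 probe sets cover 9 of the 10 genes, with 3 for Six3, 2 each for Isl1 and Rasd2 and 1 for each of the others, and Adora2a had none of its own. The genes were chosen by name with an earlier comparison of FTY720 and vehicle on these same arrays in view, in which striatal markers had lower values in FTY720 mice and were highest in 1 vehicle mouse. The difference between the treatments and the high mouse are therefore given as a description, with no test of the genes' own.

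All 8 animals were male SCID mice aged 12 weeks, a strain without mature B and T lymphocytes, and all were trained and tested in contextual fear conditioning. In the FTY720 group (n = 4, mice 1, 4, 5 and 6) the drug was given by mouth in saline at 1 mg/kg on 3 days, and in the vehicle group (n = 4, mice 13 to 16) saline alone was given by mouth on 3 days. FTY720 (fingolimod) is a sphingosine analogue that acts on sphingosine-1-phosphate receptors once it is phosphorylated. Tissue was the hippocampus, collected 17 hours past the final dose and 1 hour past the test of memory consolidation. Each mouse gave 1 array, so differences are between separate animals and their number limits the precision. There was no group of untrained mice, so levels before the fear test were not measured.

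Most neurons of the striatum are GABA-releasing projection neurons that receive dopamine. Those of the direct pathway carry the dopamine D1 receptor and make substance P from Tac1, and those of the indirect pathway carry the D2 receptor and the adenosine receptor encoded by Adora2a and make enkephalin from Penk. The basal forebrain, with the septum, holds the cholinergic neurons that project to the hippocampus, and Lhx8 and Isl1 act in forming cholinergic neurons. Penk and Tac1 are also made by some neurons of the hippocampus itself, whereas Lhx8, Isl1, Six3 and Rarb are regulators known mainly from outside it.

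Values are log2 levels as deposited, on which 1 unit is a doubling. The probe sets tested had a median level of 6.7 and the lowest value in the table was 2.31. Array medians ran from 6.68 to 6.72. The vehicle 15 array was least like the rest (median r = 0.994) and stood by itself along principal component 1 (32.3% of variance). Component 2 (20.2%) set vehicle 16 apart in the same way, and its Gapdh control probe sets had the steepest loss of 5' signal, -1.46 against -1.18 to -0.80 in the other mice. Among hippocampal markers, mean levels were 9.90 for Zbtb20, 10.49 for Neurod6 and 11.06 for Calb1, but 3.29 for Prox1 and 3.98 for Cabp7. In vehicle 15, Neurod2 (8.47 against 8.84 to 9.17) and Lhx2 (7.99 against 8.45 to 8.57) lay below the other mice. Lhx9 (7.35 against 5.70 to 6.67) lay above them. Averaged over 13 such markers and centred on all mice, the levels ran from -0.24 in vehicle 16 to 0.18 in FTY720 4, with vehicle 15 at -0.09. The difference between the groups is given below for each member with and without both of these mice or vehicle 15.

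The promoters of members for which RefSeq sequence was at hand, the stretches just before their start sites, are shown first as a description. Sequence was matched for 7 of the 9 measured genes by symbol. Windows of 250 bases before to 50 bases after the start were searched on both strands for TGACGTCA, the full cyclic AMP response element, for its shorter core TGACG, which lies within it on either strand, for the homeodomain core TAATTA, and for 2 copies of GTTCA on the same strand with starts 11 bases apart, as in the retinoic acid response element for which Rarb is a textbook case. The 250 bases before the start of Tac1 (chr6:7554811-7555060, plus strand), Cartpt (chr13:99900684-99900933, minus strand), Isl1 (chr13:116309689-116309938, minus strand) and Rarb (chr14:16575477-16575726, minus strand) follow in build GRCm38.p6, 5' to 3', with every match in capitals, CGTCA where TGACG lies on the other strand, and the GTTCA pair with the bases between its copies.
Tac1: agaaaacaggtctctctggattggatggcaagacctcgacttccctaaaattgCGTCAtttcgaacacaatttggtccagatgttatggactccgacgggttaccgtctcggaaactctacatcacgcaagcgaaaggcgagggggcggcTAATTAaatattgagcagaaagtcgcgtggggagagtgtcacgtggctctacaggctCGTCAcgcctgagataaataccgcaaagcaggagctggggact
Cartpt: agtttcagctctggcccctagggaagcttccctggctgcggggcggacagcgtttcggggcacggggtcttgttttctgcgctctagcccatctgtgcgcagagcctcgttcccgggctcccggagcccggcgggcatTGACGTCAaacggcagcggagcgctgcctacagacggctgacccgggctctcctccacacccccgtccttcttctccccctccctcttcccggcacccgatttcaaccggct
Isl1: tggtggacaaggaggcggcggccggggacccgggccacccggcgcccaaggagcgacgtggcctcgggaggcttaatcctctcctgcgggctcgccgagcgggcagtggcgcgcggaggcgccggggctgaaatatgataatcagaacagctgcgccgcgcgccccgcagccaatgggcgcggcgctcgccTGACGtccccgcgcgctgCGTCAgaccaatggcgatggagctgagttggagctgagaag
Rarb: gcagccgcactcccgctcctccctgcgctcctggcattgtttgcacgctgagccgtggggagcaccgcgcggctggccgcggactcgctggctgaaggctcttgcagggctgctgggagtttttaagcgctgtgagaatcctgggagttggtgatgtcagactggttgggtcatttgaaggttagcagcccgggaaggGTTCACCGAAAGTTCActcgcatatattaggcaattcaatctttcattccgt
TGACG lay in the windows of 3 of the 7 genes, Tac1, Isl1 and Cartpt, and in 20.8% of the 32851 promoters in the table. The full element TGACGTCA was in that of Cartpt, 112 to 105 bases before the start, and in 1.79% of all promoters. TAATTA was in that of Tac1, 100 to 95 bases before the start, and in 5.29% of all. The spaced GTTCA pair was in that of Rarb, 52 to 37 bases before the start, and in 0.0761% of all promoters (25 of them). This pair was added to the search after the sequences were seen, so finding it in Rarb is no test. The windows of Rasd2, Six3 and Lhx8 held none of these letters. A match describes the sequence and is not a measured site, and no 1 of these motifs was in more than 3 of the 7 windows.

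Among the secreted peptides, Penk encodes proenkephalin, the precursor of the opioid enkephalins. Its log2 level was 8.79, 8.53, 8.96 and 8.43 in FTY720 mice 1, 4, 5 and 6, and 8.44, 9.11, 11.39 and 10.33 in vehicle mice 13, 14, 15 and 16. Vehicle 15 and vehicle 16 stood above all the others, while vehicle 13 and 14 lay within or just above the FTY720 values, so the groups overlapped. The difference, FTY720 minus vehicle, was -1.14 (SE 0.52), the largest in size of the 13 probe sets. It was -0.61 (SE 0.37) without vehicle 15 and -0.10 (SE 0.20) without vehicle 15 and 16.

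Tac1 encodes the precursor of substance P and neurokinin A. Its level was 9.72, 9.34, 9.35 and 9.35 in the FTY720 mice and 9.40, 9.29, 12.52 and 10.07 in the vehicle mice. Vehicle 15 stood 2.45 above the next mouse, vehicle 16, and the other 6 mice lay within 0.43 of each other. The difference of -0.88 (SE 0.59) between the groups became -0.15 (SE 0.18) without vehicle 15 and 0.10 (SE 0.12) without both mice.

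Cartpt encodes the CART peptide, abundant in the nucleus accumbens of the ventral striatum and in the hypothalamus. Its level was 6.46, 5.85, 5.89 and 5.72 in the FTY720 mice and 5.81, 6.03, 8.76 and 6.07 in the vehicle mice. Only vehicle 15 lay outside the range of the FTY720 mice, and the next highest mouse of the 8 was FTY720 1. The difference was -0.69 (SE 0.56) with all mice and 0.01 (SE 0.16) without vehicle 15.

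**Figure D1:**
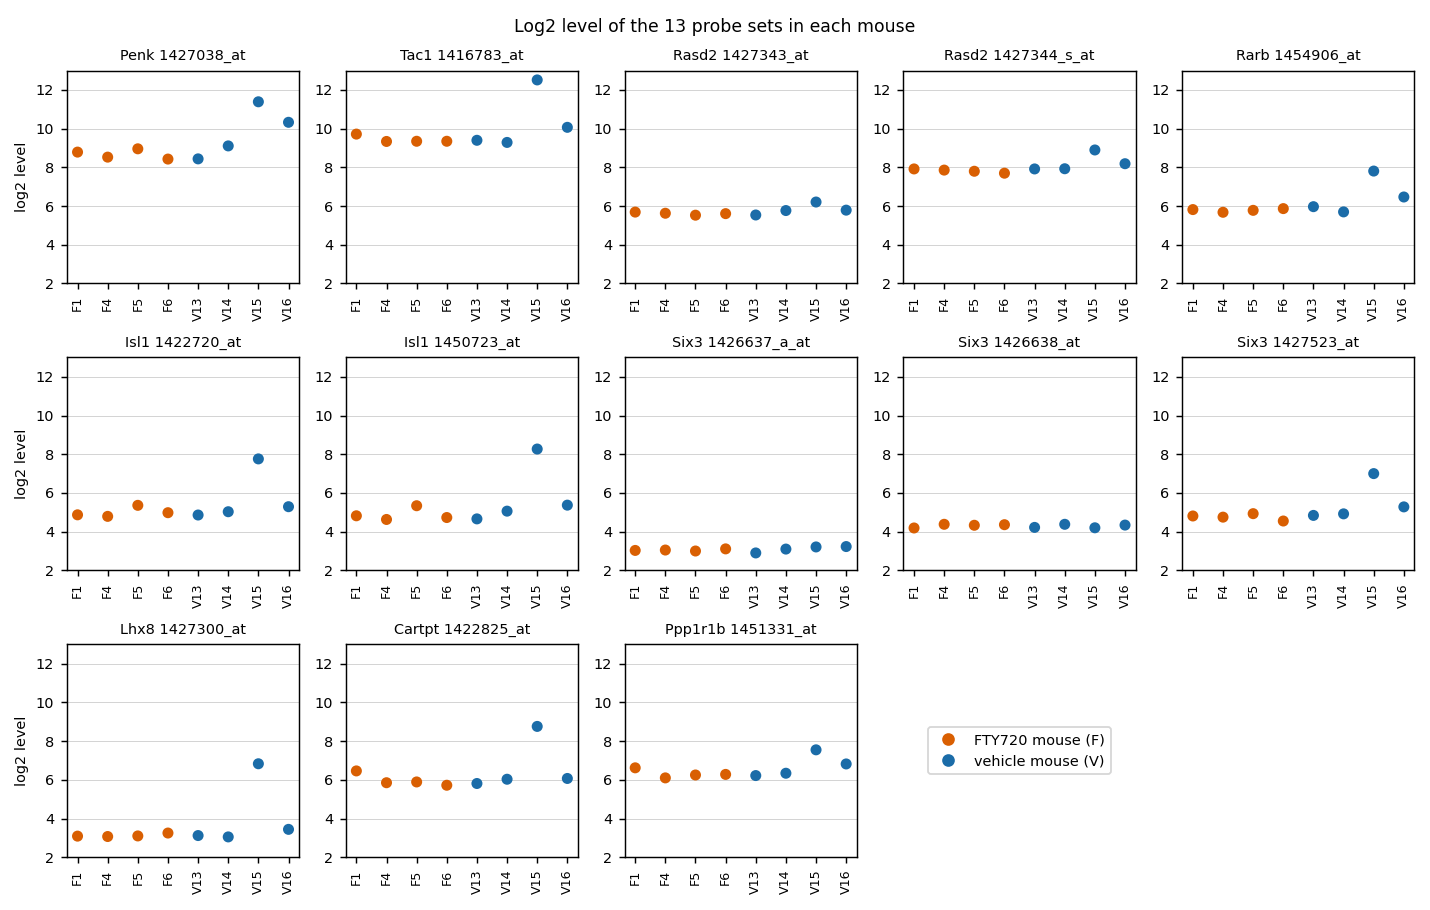
Log2 level (vertical axis, 2 to 13 in every panel) of each of the 13 probe sets in the 4 FTY720 mice (F, orange) and the 4 vehicle mice (V, blue), 1 point per mouse. Vehicle 15 is the highest point in 11 of the 13 panels and vehicle 16 is the next highest in 9 of these.

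Among the transcription factors, Lhx8, a LIM homeodomain protein of cholinergic neuron development, had the clearest separation of 1 mouse. Its level was 3.09, 3.07, 3.10 and 3.25 in the FTY720 mice and 3.12, 3.05, 6.83 and 3.44 in the vehicle mice. The mean level of its probe set was at the 7.7th percentile of all probe sets, and vehicle 15 was the 1 mouse far from the low end of the scale. Vehicle 15 stood 3.73 above the median of the other 7 mice. With no detection call at hand, the signal of those 7 was not shown to be above background, so no fold is given. The group difference was -0.98 (SE 0.71) with all mice, -0.08 (SE 0.09) without vehicle 15 and 0.04 (SE 0.07) without vehicle 15 and 16.

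Isl1, another LIM homeodomain factor, which marks direct pathway and cholinergic neurons of the striatum, had 2 probe sets that gave like patterns. That of the larger spread, 1450723_at, stood at 4.82, 4.63, 5.34 and 4.73 in FTY720 mice and at 4.66, 5.06, 8.27 and 5.37 in vehicle mice. The other, 1422720_at, stood at 4.87, 4.79, 5.36 and 4.98 and at 4.86, 5.03, 7.76 and 5.29. In both, vehicle 15 was the highest mouse, by 2.90 and 2.39, and FTY720 5 was within 0.1 of vehicle 16. The group differences of -0.96 (SE 0.65) and -0.74 (SE 0.54) became -0.15 and -0.06 without vehicle 15, and 0.02 and 0.05 without both mice.

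Six3, a homeodomain factor of indirect pathway neurons and of the early forebrain, had 3 probe sets that did not behave alike. In 1427523_at the FTY720 mice stood at 4.81, 4.75, 4.93 and 4.55 and the vehicle mice at 4.84, 4.92, 7.0 and 5.28. In 1426638_at they stood at 4.19, 4.38, 4.33 and 4.36 and at 4.22, 4.38, 4.20 and 4.34, and in 1426637_a_at all 8 values lay between 2.90 and 3.23. Vehicle 15 was thus 2.16 above the median of the others in 1427523_at, stood at -0.13 from it in 1426638_at and was 0.16 above it in 1426637_a_at. The mean levels of these probe sets lay at percentiles 27.4, 16.0 and 2.5 of all probe sets, in the same order. Their group differences were -0.75 (SE 0.40), 0.03 (SE 0.06) and -0.06 (SE 0.08), and -0.12 (SE 0.10), 0.01 (SE 0.08) and 0.05 (SE 0.07) without vehicle 15 and 16.

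Rarb encodes the retinoic acid receptor of the beta type, which is needed for development of striatal projection neurons. Its level was 5.82, 5.68, 5.78 and 5.87 in the FTY720 mice and 5.97, 5.70, 7.81 and 6.47 in the vehicle mice. Vehicle 15 and 16 were again the highest, and vehicle 14 lay within the FTY720 range. The difference was -0.70 (SE 0.37), then -0.26 (SE 0.15) without vehicle 15 and -0.05 (SE 0.09) without both.

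Of the signalling proteins, Ppp1r1b encodes DARPP-32, the protein phosphatase inhibitor that is switched by dopamine and cyclic AMP. Its level was 6.62, 6.10, 6.25 and 6.28 in FTY720 mice and 6.22, 6.34, 7.55 and 6.82 in vehicle mice. FTY720 1 lay between vehicle 14 and vehicle 16, and vehicle 15 was the highest. The difference was -0.42 (SE 0.25), and 0.03 (SE 0.13) without vehicle 15 and 16.

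Rasd2 encodes Rhes, a small GTP-binding protein of striatal neurons. In its brighter probe set, 1427344_s_at, FTY720 mice stood at 7.92, 7.86, 7.80 and 7.70 and vehicle mice at 7.92, 7.93, 8.90 and 8.19. This was the 1 probe set of the 13 whose groups did not overlap, where FTY720 1 and vehicle 13 were equal to the second decimal. A suffix of this kind marks probe sets that can match related transcripts. The dimmer probe set, 1427343_at, stood at 5.69, 5.63, 5.53 and 5.61 and at 5.54, 5.77, 6.21 and 5.79. Their differences were -0.41 (SE 0.19) and -0.21 (SE 0.12), and -0.10 (SE 0.07) and -0.04 (SE 0.08) without vehicle 15 and 16. Groups that did not overlap, in either direction, made up 4.38% of all probe sets.

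In the limma fit over all 22626 probe sets none passed an adjusted p of 0.05 (0% of those tested, lowest adjusted p = 0.483). At an unadjusted p under 0.05 there were 617 probe sets with lower values in FTY720 mice (2.73%) and 912 with higher values (4.03%). In this fit of all 8 mice, none of the 13 member probe sets was among these. Lower means in FTY720 mice were found for 12 of the 13, with a median difference of -0.70, beside 45.6% of all probe sets and a median of 0.009. Without vehicle 15 the members' median difference was -0.15 with 11 of 13 below 0. Without vehicle 15 and 16 it was 0.018, with 5 below and 8 above 0 and a range from -0.12 to 0.10. In bulk tissue, fewer cells of a type and less RNA per cell cannot be told apart.

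**Figure D2:**
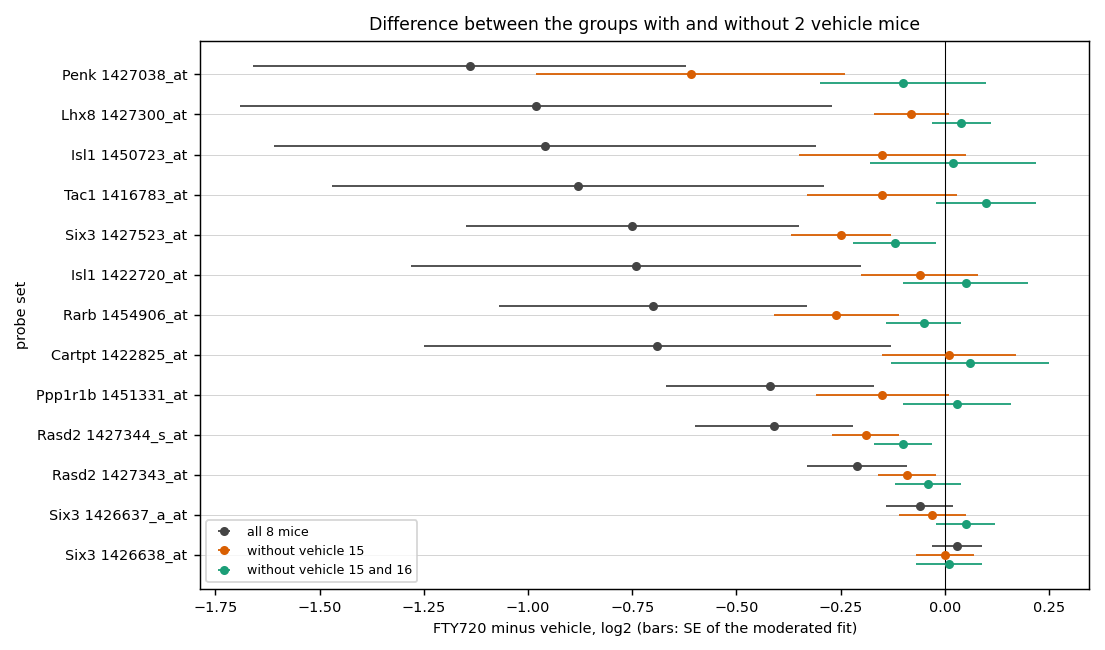
Difference in log2 level between FTY720 and vehicle mice (horizontal axis) for each probe set, with the SE of the moderated fit as bars, from all 8 mice (grey), without vehicle 15 (orange) and without vehicle 15 and 16 (green). The grey points reach -1.14, and the green ones all lie between -0.12 and 0.10.

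The spread between mice was wide for most members. The pooled standard deviation (SD) within groups had a median of 0.72 over the 13 probe sets, against 0.10 over all probe sets. It was 1.29 for Lhx8, 1.18 and 0.98 for the Isl1 probe sets, 1.07 for Tac1, 1.02 for Cartpt and 0.94 for Penk. Each of these lay at or above the 99.9th percentile of all probe sets. At the other end stood the Six3 probe sets 1426637_a_at and 1426638_at, with 0.11 and 0.09. The wide values came from the vehicle group, where the SD was 1.51 for Tac1 and 1.31 for Penk, against 0.19 and 0.24 among FTY720 mice. In the 6 mice other than vehicle 15 and 16, the range of a member had a median of 0.38, where that of all probe sets was 0.24. Cartpt (0.74), Isl1 1450723_at (0.71) and Penk (0.68) kept the widest ranges among those 6.

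Vehicle 15 was the highest of the 8 mice in 11 of the 13 probe sets, where it was so in 15.9% of all probe sets. It stood at least 1 unit above the median of the other 7 mice in 9 of the 13, against 0.526% of all (119 probe sets). For members other than Lhx8, the folds over that median were 10.9 and 6.86 for the Isl1 probe sets, 9.01 for Tac1, 7.31 for Cartpt, 6.06 for Penk, 4.47 for Six3 1427523_at, 3.96 for Rarb and 2.41 for Ppp1r1b. Rasd2 was smaller, with 1.97 and 1.49. Arrays compress differences between dim signals, so the order of these folds is that of the table's values. The other mice were dim for Isl1 (medians 4.82 and 4.98) and Six3 1427523_at (4.84) too. With no detection call, their signal was not shown to be above background either, which limits those folds. By difference in the table's log2 values, Lhx8, Isl1 1450723_at and Tac1 held ranks 1, 3 and 4 of all 22626 probe sets, with Lhx8 and Isl1 dim in the other mice.

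Vehicle 16 differed from vehicle 15 in which member led. Without vehicle 15 it was the highest of the 7 remaining mice in 10 of the 13 probe sets, beside 18.7% of all. Penk stood 1.67 above the median of the 6 other mice there, or 3.18-fold, which was rank 8 of all probe sets. Tac1 followed with 0.72, Rarb with 0.67, Isl1 1450723_at with 0.59 and Ppp1r1b with 0.56, all above the 99th percentile of 0.48. Lhx8, first in vehicle 15, was 0.35 above the median in vehicle 16, and Cartpt was 0.20 above it. No test was made between these single mice.

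**Figure D3:**
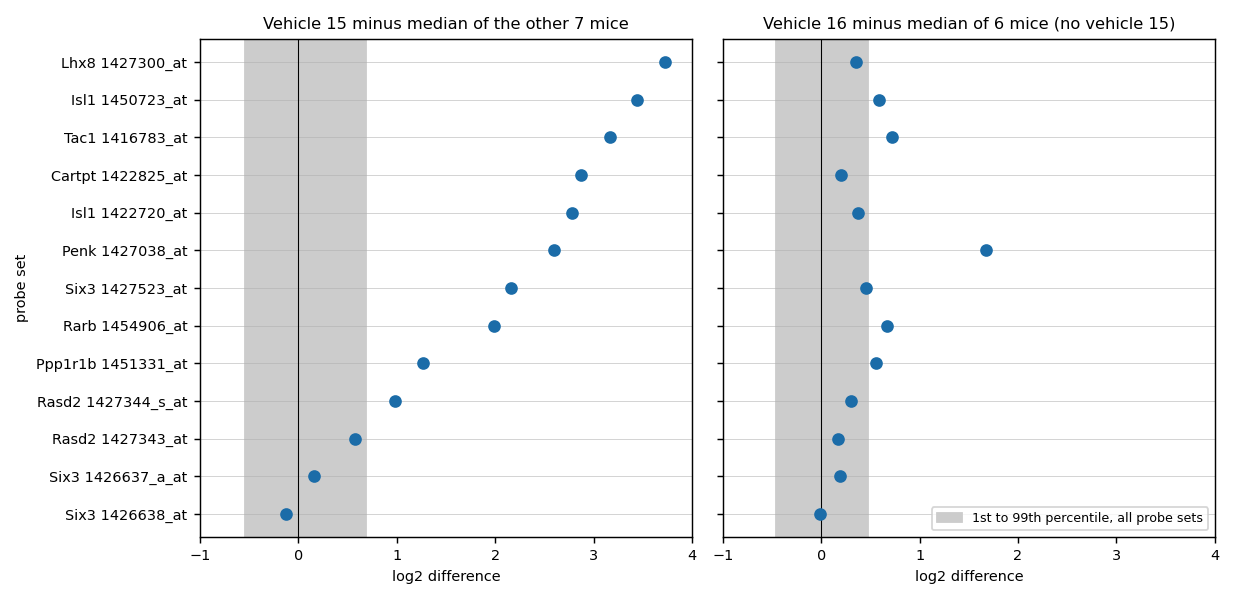
Log2 difference of vehicle 15 from the median of the other 7 mice (left) and of vehicle 16 from the median of the 6 mice that remain without vehicle 15 (right) for each member probe set, with the 1st to 99th percentile of all probe sets shaded. On the left 10 points lie beyond the shading, led by Lhx8 at 3.73, and on the right Penk at 1.67 lies far from the rest.

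The members followed each other across mice mainly through these animals. Over all 8 mice the 36 pairs of the 9 genes, each by its brightest probe set, had Pearson correlations from 0.84 to 0.98 with a median of 0.95. Without vehicle 15 they ran from -0.07 to 0.93 with a median of 0.69, and without both mice from -0.85 to 0.88 with a median of 0.06. The pairs share the same arrays and are a description of them. Among the 6 mice Cartpt and Ppp1r1b (0.88), Tac1 and Cartpt (0.84) and Tac1 and Ppp1r1b (0.83) were still alike, with FTY720 1 the highest of the 6 in all 3 genes. Lhx8 ran against Six3 (-0.85) and Rasd2 (-0.84) there, within a range of 0.19 for Lhx8.

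The members' mean profile, each gene centred on its 8-mouse mean, was 2.03 in vehicle 15, 0.19 in vehicle 16 and between -0.48 and -0.24 in the other 6 mice. Outside the members, the probe sets above the median level that were most like it over 8 mice were those of Zeb1 (Pearson r = 0.991), Strn (0.988), Sptssa (0.983), Retreg1 (0.982), Srsf1 (0.982), Ccm2 (0.981), Elmo1 (0.979) and Acly (0.978). Their values were high in vehicle 15 by far less, 0.74 for Strn and 0.37 for Zeb1. Over the 7 mice without vehicle 15 the most alike were other genes, Frmd6 (0.990), Rassf3 (0.985), Sema3a (0.981), Fcho1 (0.979), Ptpn5 (0.978), Zfp318 (0.977), Ntm (0.974) and Pmepa1 (0.973). In each of these 8 vehicle 16 was the highest of the 7 mice, by up to 0.96 over the median in Sema3a. With 8 or 7 points, the mouse that stands apart weighs most in each correlation.

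Other genes typical of striatal projection neurons, 14 measured of 24 listed, mostly followed the members at a smaller size. Vehicle 15 was the highest mouse in 11 of the 14 and stood at least 1 unit up in 6, with a median of 0.98. It was not the highest in Bcl11b (-0.37 from the median of the other mice), Chrm4 (-0.05) and Foxp1 (0.11). Bcl11b was also lower in vehicle 16, by -0.49 from the median of the 6 other mice. Drd2, the dopamine D2 receptor of the indirect pathway, was 6.67 in vehicle 15 and 5.34 to 6.13 in the others. Pde10a, the phosphodiesterase of striatal neurons, was 8.59 against 7.38 to 7.79. No gene of the list passed an adjusted p of 0.05, 3 were lower in FTY720 mice at an unadjusted p under 0.05 and none was higher. Of these Ebf1, a factor of direct pathway neurons, differed by -0.61 (SE 0.19, limma adjusted p = 0.685) and Arpp21, a phosphoprotein regulated by cyclic AMP, by -0.56 (SE 0.22, adjusted p = 0.699). Without vehicle 15 and 16 they stood at -0.31 and -0.14, and the list's median moved from -0.29 to 0.01. Drd1 had no probe set of its own.

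Genes of the ganglionic eminences, the embryonic source of these neurons, and of the cholinergic basal forebrain were split. Of 16 measured, vehicle 15 was the highest mouse in 11, with Zic1, a zinc finger factor of septum and thalamus, at 11.30 against 7.72 to 9.32 in the other mice. It stood at least 1 unit up in 7, which were Zic1, Zic2, Zic4, Zic5, Gbx2, Dlx1 and Dlx6. Zic1 and Gbx2 are also counted in the thalamus and habenula list. Nkx2-1 (-0.02 from the median of the other mice), Lhx6 (-0.18) and Gsx2 (0.28) were not highest in vehicle 15. In vehicle 16 the list mean was -0.18, where that of the members was 0.19. The vesicular acetylcholine transporter Slc18a3 was 3.53 in vehicle 15 and 3.40 to 3.79 in the others, and the choline transporter Slc5a7 was 4.15 against 3.70 to 4.30. Both transporters were near the low end of the scale, and Chat had no probe set of its own. Acetylcholinesterase, Ache, was 6.85 in vehicle 15 and 6.35 to 6.54 in the others, and the neurotrophin receptor Ngfr, which cholinergic basal forebrain neurons carry, was 5.75 against 5.13 to 5.57. Of these 4 genes, Ache and Ngfr were thus highest in vehicle 15, and the transporters lay within the range of the other mice. No gene passed the adjusted p. Gbx2, a thalamic homeodomain factor, was lower in FTY720 mice by -0.91 (SE 0.32, adjusted p = 0.699) and Lhx6, a factor of cortical interneurons, was higher by 0.23 (SE 0.06, adjusted p = 0.593), each at an unadjusted p under 0.05. Without vehicle 15 the difference of Gbx2 was -0.58, and without vehicle 15 and 16 it was -0.83.

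The dopamine and cyclic AMP partners of DARPP-32, taken as a list, moved little beside it. Over 17 measured genes the median in vehicle 15 was 0.03 above the other mice, but 2 were at least 1 unit up, Drd2 (1.06) and Pde10a (1.01). Both are the probe sets already counted in the list of striatal projection neuron genes. The median group difference was -0.01, and 1 gene was lower at an unadjusted p under 0.05, the phosphodiesterase Pde1b at -0.47 (SE 0.17, adjusted p = 0.699). Pde1b stood 0.91 higher in vehicle 15 than the median of the others, and its difference was -0.27 without that mouse and -0.24 without vehicle 15 and 16. The list for the member peptides, of receptors, processing enzymes and other peptide precursors, had a vehicle 15 median of 0.06 over 17 genes. Vehicle 15 was the highest mouse in 8 of them and at least 1 unit up in 2, Pdyn and the neurokinin B gene Tac2. Both of these are precursors, so no receptor or processing enzyme was 1 unit up. Pdyn is also counted in the list of striatal projection neuron genes. Tac2, which the thalamus and habenula list also holds, was 7.96 in vehicle 15 and 5.77 to 6.32 in the other mice. Tacr3, the neurokinin 3 receptor, had values of 6.33, 6.24, 6.73 and 6.82 in FTY720 mice and 6.24, 5.64, 6.21 and 5.55 in vehicle mice. Its difference of 0.62 (SE 0.19, adjusted p = 0.685) pointed the other way from Tac1 and was 0.59 without vehicle 15 and 16. Pdyn, the prodynorphin gene of direct pathway neurons, stood at -0.52 (SE 0.21, adjusted p = 0.704), with vehicle 15 at 5.87 and the others at 4.53 to 5.09. Its difference was -0.27 without vehicle 15 and -0.17 without vehicle 15 and 16. Retinoic acid receptors and handling genes, 15 measured, had a vehicle 15 median of 0.02 and none past 1 unit. Their group median was -0.03, with Cyp26a1, which degrades retinoic acid, at 0.25 (SE 0.07, adjusted p = 0.630).

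Markers of other regions were set beside the members in the same mice. Thalamus and habenula markers (13 genes) had vehicle 15 as the highest mouse in 12, with a median of 1.74, and 6 were lower in FTY720 mice at an unadjusted p under 0.05. Their list mean ran from -0.43 to -0.22 in FTY720 mice and from -0.32 to 1.28 in vehicle mice. Choroid plexus markers (10 genes) were highest in vehicle 15 in all 10, with a median of 2.0. Their list mean also stood at 1.00 in FTY720 1, 0.66 in FTY720 5 and 0.85 in vehicle 14. The members' mean in these mice was -0.24, -0.31 and -0.32. In FTY720 4, FTY720 6 and vehicle 13 the choroid mean was -1.25, -1.35 and -0.45, and the members' mean was -0.48, -0.46 and -0.41. In vehicle 16 the choroid mean was -0.95, where the members were second highest. The thalamic mean of vehicle 16 was -0.32. The median group difference of the choroid list was -0.46 with all mice, -0.03 without vehicle 15 and -0.37 without vehicle 15 and 16. In the same order that of the thalamic list was -0.58, -0.22 and -0.39, and that of the members was -0.70, -0.15 and 0.018. The nuclear receptor Rora of the thalamic list differed by -0.43 (SE 0.11, limma adjusted p = 0.593) with all mice and by -0.39 without both.

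Neocortex markers (10 genes) had list means from -0.09 to 0.00 in FTY720 mice and from -0.21 in vehicle 15 to 0.49 in vehicle 16. Oligodendrocyte markers (9 genes, all 9 lower in FTY720 mice at an unadjusted p under 0.05) ran from -0.35 to -0.06 in FTY720 and from -0.07 to 0.39 in vehicle mice, highest in vehicle 16. Hypothalamus markers (11 genes) had none past 1 unit in vehicle 15 and a list mean of 0.14 there, and interneuron markers (12 genes) a list mean of 0.05 there. Within the last list the GABA-synthesis gene Gad2 was 9.12 in vehicle 15 and 7.89 to 8.36 in the others, and Sst was 9.88 against 10.12 to 10.41. None of the 12 lists had a gene past an adjusted p of 0.05. The part of tissue from other regions, of the 5' signal or of these single mice in the members' difference between the groups was not tested.

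**Figure D4:**
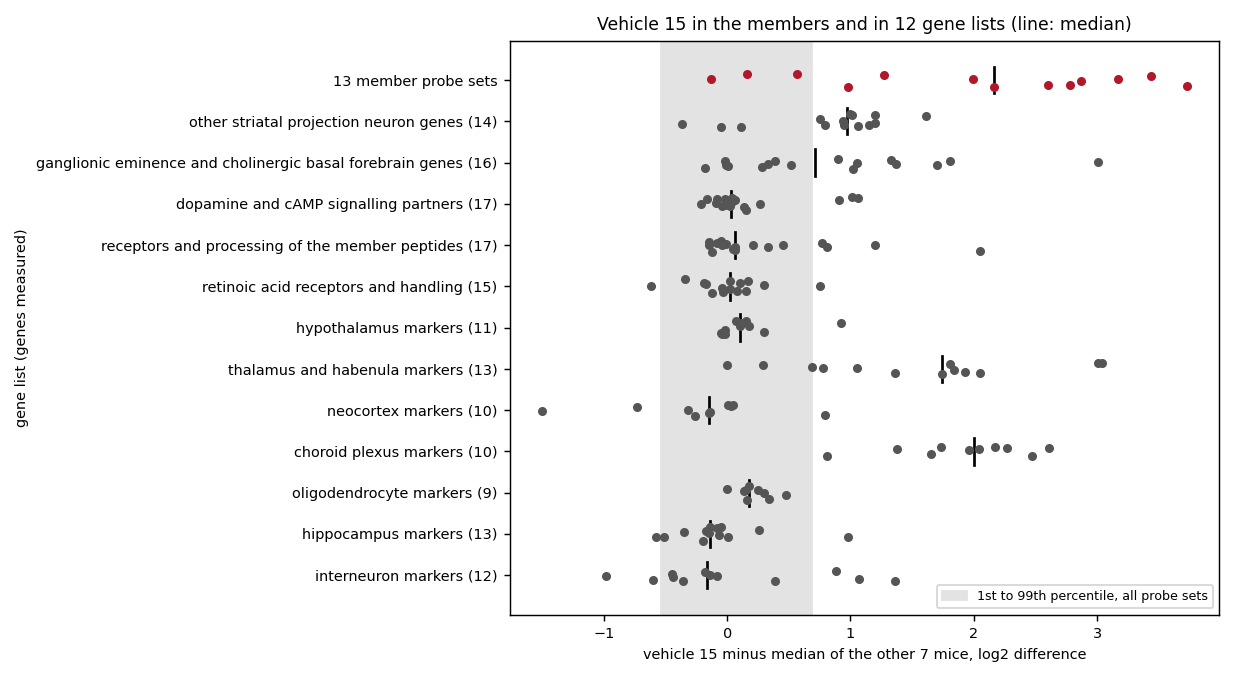
Log2 difference of vehicle 15 from the median of the other 7 mice (horizontal axis) for the 13 member probe sets (red) and for the genes of 12 lists (grey, 1 point per gene, jittered), with the list median as a black line and the 1st to 99th percentile of all probe sets shaded. The members' median is 2.16, that of choroid plexus markers 2.0 and that of thalamus and habenula markers 1.74, and hippocampus markers lie around -0.14.

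**Figure D5:**
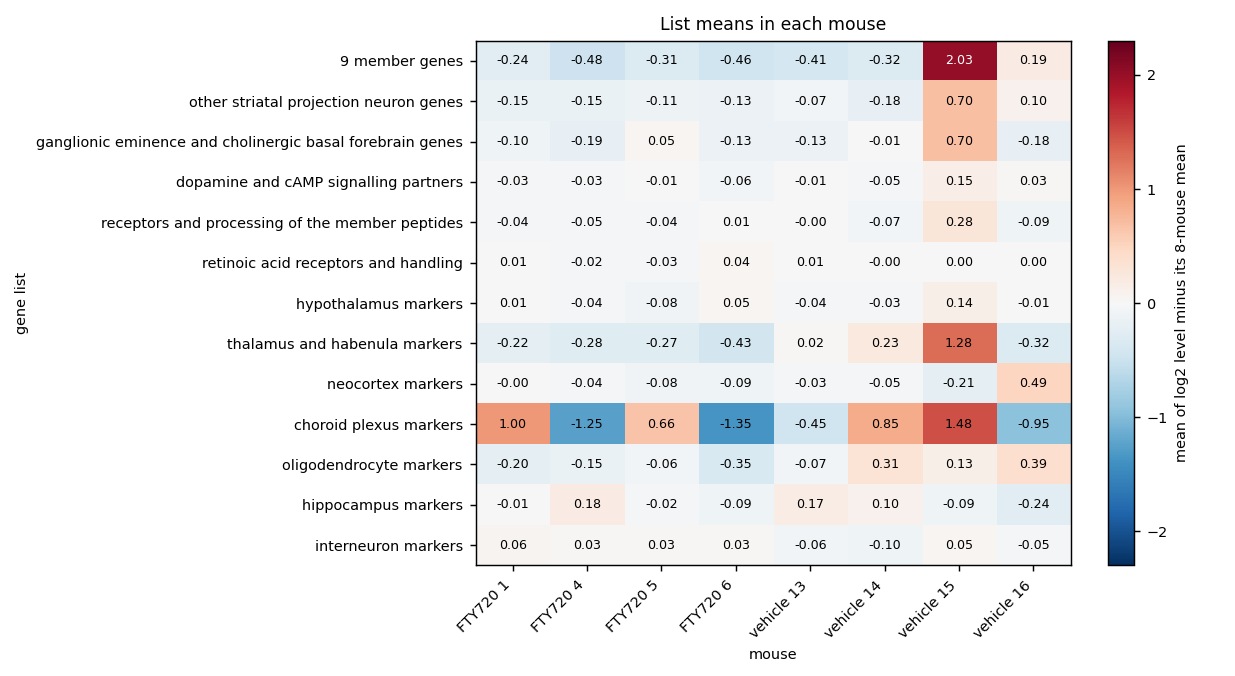
Mean over genes of the log2 level minus its 8-mouse mean, for the 9 member genes and 12 lists (vertical) in each mouse (horizontal), with the value printed in each cell and red above and blue below 0. Vehicle 15 stands at 2.03 in the members, and choroid plexus markers vary in other mice too, from -1.35 in FTY720 6 to 1.00 in FTY720 1.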

How the data were processed

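The table holds log2 levels per probe set as deposited, a scale read from its values. The submitters' processing notes name Affymetrix Expression Console, MAS5 and RMA without roles, so which of these the authors used was not stated, and a genome build, scan date and detection call are not given in the sources used here. Of 22690 probe sets, 64 controls were left out. Values were used with no further normalization, filter or pseudocount, and no 2 arrays were identical.

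FTY720 and vehicle (n = 4 each) were compared with limma 3.58.1 in R 4.3.3 (lmFit, eBayes, no covariate), with Benjamini-Hochberg adjustment over 22626 probe sets. On simulated data the fit was checked for recovery of known changes. SE is that of the moderated fit. The members, the 12 gene lists (1 probe set per gene, that of highest mean level) and the rule for named genes were chosen with earlier results of these data known. Named were all member probe sets, genes among the 2 of smallest p in a list, fixed defining genes and the 8 probe sets most like the members' mean profile. Slc18a3, Slc5a7, Ache, Ngfr, Tac2, Gad2, Sst, Zbtb20, Neurod6, Calb1 and genes of the closing section were added as examples after their values were seen. So were Cabp7, Neurod2, Lhx2, Lhx9, Bcl11b, Chrm4, Foxp1, Zic2, Zic4, Zic5, Dlx1, Dlx6, Nkx2-1 and Gsx2. The GTTCA pair was added to the motifs after the sequences were seen. Promoters and their printed coordinates are those of RefSeq, build GRCm38.p6. The array's build is not given, so no coordinates of probe sets are printed. Alternatives covered normalization, centring, a filter on dim probe sets, other units of the fit, variance models, array weights and leaving out mice.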

Additional observations from a re-analysis of the deposited data

Results flagged for a closer look

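Of 26 groups of 4 mice, 1 per treatment for each of the 13 probe sets, 5 had a single mouse whose gap to the nearest other passed Dixon's 95% limit, where all probe sets gave 5.6% in the FTY720 and 6.4% in the vehicle group and chance gives about 5%. The genes were chosen with the high values of vehicle 15 known, so these gaps describe the mice and the count is no test of the genes. In 3 vehicle groups that mouse was vehicle 15, with Lhx8 at 6.83, Isl1 1422720_at at 7.76 and Cartpt at 8.76. In the FTY720 group Tac1 stood at 9.72 in FTY720 1, where the other 3 lay at 9.34 and 9.35, and Lhx8 at 3.25 in FTY720 6, where the others lay at 3.07 to 3.10. Where vehicle 16 was high as well, as in Penk, the gap from vehicle 15 to the next mouse was a smaller share of the range and did not pass.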

How the results depend on the processing

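The median difference of the members was -0.70 and remained between -0.88 and -0.31 under quantile normalization, centring, the filter on dim probe sets, other units of the fit, other variance models and array weights, which gave the -0.31. Leaving out 1 mouse at a time moved it between -0.97 and -0.15, the latter without vehicle 15. It was 0.018 without vehicle 15 and 16 together, which changed its sign. The median within-group SD of the members, 0.72, ranged from 0.24 to 0.79 with 1 mouse left out, lowest without vehicle 15, and was 0.14 without vehicle 15 and 16. No probe set passed an adjusted p of 0.05 in limma under any of these settings. The count at an unadjusted p under 0.05 was 1529, and between 1266 and 1838 with 1 mouse left out. It was 969 with the filter, 823 with 1 probe set per gene and 835 with a gene's probe sets averaged, all of which test fewer features. No paired analysis was possible because the groups share no replicate number. Dim signals near the low end of the scale, as in Lhx8 and 2 Six3 probe sets, limit what can be seen in those genes.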

Other observations

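Of the 119 probe sets at least 1 unit above the other mice in vehicle 15, 9 were members, 13 belonged to choroid plexus and 12 to thalamus and habenula markers, and 73 to none of the lists or members. Both probe sets of Abi3bp, an extracellular matrix gene, were among the highest in vehicle 15 (3.13 and 3.02) and in vehicle 16 (2.42 and 2.09). In vehicle 16 the highest of all were those of Egr2, an immediate early factor, at 2.64 and 2.60, with Arc at 1.52 and Fos at 1.37. These genes were picked by rank after the values were seen and no test was made of them.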
